A study of Mus musculus with 9 samples.

Results

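Sptb, Ank1, Epb42, Epb41, Slc4a1, Rhag, Rhd and Kel encode proteins of the red cell membrane and of the protein network beneath it. They were taken from the deposited expression table by gene symbol, and all 8 were found among its 20926 genes. Blood RNA was sequenced as 9 libraries from male DBA/1 mice, 3 libraries to a group. The labels give an age of 7 weeks, which by the study's methods was that at the forming of the groups, so blood was taken later. The groups are named Ctrl, CIA and CIA+THz. The Ctrl mice were not irradiated and had no induced disease, and the CIA mice were immunized with chick type II collagen in adjuvant, which brings on collagen-induced arthritis (CIA), used as a model of rheumatoid arthritis. CIA+THz mice were immunized likewise, after which their swollen ankles received 0.1 THz waves, 30 min each day during 14 days. By the study's methods they were kept under isoflurane anesthesia during irradiation, and none is described for the other groups. Irradiation and anesthesia therefore cannot be told apart in the comparisons with CIA+THz. The comparisons ask how these genes differ in arthritis and whether they differ after irradiation of arthritic mice. The labels call the samples blood leukocytes, while the extraction notes speak of total blood RNA. The labels give no batch, and they do not state which animal each library came from, so the p-values measure the spread between libraries.

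A red cell keeps its shape through a lattice of long spectrin molecules that lies under the membrane. Ankyrin ties the beta chain of spectrin to band 3, an anion exchanger that spans the membrane, and protein 4.1 joins the ends of spectrin to actin and to other membrane proteins. The Rh and Kell blood group proteins sit in the same membrane. Inherited loss of spectrin, ankyrin, band 3 or protein 4.2 is a known cause of fragile, rounded red cells. The mature cell has no nucleus, and most of the messages for these proteins are made in its nucleated precursors and persist for a time in young red cells that enter the blood.

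The genes lie on 7 chromosomes of the mouse genome build GRCm38. Sptb spans chromosome 12 from 76580488 to 76710547, Ank1 chromosome 8 from 22974844 to 23150497, and Epb42 chromosome 2 from 121017891 to 121037072. Epb41 (131923413 to 132075321) and Rhd (134864536 to 134896172) are both on chromosome 4. Slc4a1 lies on chromosome 11 from 102348824 to 102366203, Rhag on chromosome 17 from 40811126 to 40840754, and Kel on chromosome 6 from 41686330 to 41704339. Sptb overlaps Plekhg3 on the opposite strand, Ank1 overlaps Mir486 on its own strand and an antisense transcript, Epb41 overlaps Gm10300 on the opposite strand, and Kel overlaps the unconfirmed transcript Gm37527 on its own strand. Whether the reads were counted by strand is not given in the sources used here, so reads of these 4 genes where they overlap cannot be told apart from those of their neighbours.

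Promoter sequence is shown for 4 of the genes. Red cell genes are known to be controlled by GATA1, which binds GATA sites, and by KLF1, which binds CCACCC. Any part of these factors in the levels measured here was not tested. RefSeq windows of 250 bases before the start on GRCm38.p6 were at hand for 6 of the 8 genes, with 3 windows for Epb41. For Kel, Rhag, Epb42 and Epb41 these starts lie inside the gene spans given above, which come from GENCODE. Their windows therefore lie partly or wholly within those spans, as does the CCACCC of Kel. Distances below are to the RefSeq starts. The GATA forms searched were AGATAA and also TGATAA, and the KLF1 form was CCACCC. All were looked for on both strands, no match overlapped another, and matches stand in capitals, as their reverse complements where the match is on the opposite strand. Each sequence reads 5′ to 3′ toward the start: Kel from chr6:41704326-41704575 (minus strand), Rhag from chr17:40810899-40811148 (plus strand), Rhd from chr4:134864286-134864535 (plus strand) and Sptb from chr12:76710548-76710797 (minus strand).
Kel: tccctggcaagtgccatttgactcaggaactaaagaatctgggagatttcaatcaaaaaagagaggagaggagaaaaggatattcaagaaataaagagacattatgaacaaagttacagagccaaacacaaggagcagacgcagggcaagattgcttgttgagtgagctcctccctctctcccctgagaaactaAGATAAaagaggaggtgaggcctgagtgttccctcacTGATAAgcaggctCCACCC
Rhag: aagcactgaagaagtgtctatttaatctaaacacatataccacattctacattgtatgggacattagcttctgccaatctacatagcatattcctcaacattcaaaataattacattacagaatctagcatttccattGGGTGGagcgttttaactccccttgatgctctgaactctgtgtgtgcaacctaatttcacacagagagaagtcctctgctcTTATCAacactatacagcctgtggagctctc
Rhd: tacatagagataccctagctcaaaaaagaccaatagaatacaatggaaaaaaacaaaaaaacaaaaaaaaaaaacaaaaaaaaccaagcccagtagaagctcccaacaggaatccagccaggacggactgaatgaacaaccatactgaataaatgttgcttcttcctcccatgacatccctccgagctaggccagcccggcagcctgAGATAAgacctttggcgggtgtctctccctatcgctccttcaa
Sptb: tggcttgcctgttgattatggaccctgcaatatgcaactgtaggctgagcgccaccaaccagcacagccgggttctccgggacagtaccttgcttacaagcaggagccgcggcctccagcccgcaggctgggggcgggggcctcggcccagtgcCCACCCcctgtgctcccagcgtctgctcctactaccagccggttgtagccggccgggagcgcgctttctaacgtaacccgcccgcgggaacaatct
Kel held AGATAA at 56 bases before the start, counted to the leftmost base as printed. It also held TGATAA at 19 bases, and its CCACCC lay at 6 bases. Rhag held TGATAA at 31 bases, and at 112 bases it held CCACCC, both on the opposite strand. In Rhd the match was AGATAA at 43 bases, and in Sptb it was CCACCC at 96 bases. Of the windows not printed, that of Epb42 held AGATAA on the opposite strand 226 bases before the start and the 3 of Epb41 held none of the motifs. Among all 32851 promoter windows of that length, the share with AGATAA was 9.99%, with TGATAA it was 7.94%, with either of these GATA forms 16.6%, and with CCACCC it was 28.1%. A match is a run of letters and was not tested as a binding site.

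The deposited values are FPKM, mapped fragments corrected for gene length and for library size. They were divided by 1 factor per library, between 0.847 and 1.24, found as a median of ratios over 10312 genes, and are called rescaled FPKM. Compared with the values as deposited, this step moved log2 fold changes by -0.28 in CIA+THz against CIA and by -0.31 in CIA+THz against Ctrl. Absolute depth is unknown from FPKM. From the size of the smallest steps in low values, depth relative to Ctrl 1 was put at up to 1.09 in Ctrl, 1.01 to 1.27 with CIA and 1.36 to 1.88 with CIA+THz. These figures are rough, since only 41.3% to 53.7% of the 59 to 134 genes used per library lay on such a step. All 8 genes passed the filter of a mean rescaled FPKM of at least 0.1, which 12366 genes passed. RNA of red cells was plain in every library: Alas2, which makes the first enzyme of heme synthesis in red cell precursors, took 11.4% to 16.7% of the summed FPKM, and the 8 genes together took 0.122% to 0.221%. Leukocyte markers were present as well, with Ptprc (CD45, on nearly all leukocytes) between 66.8 and 150 rescaled FPKM.

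Because FPKM is per length, levels could be set side by side between genes. Epb41 was the most abundant of the 8 with a mean of 454 rescaled FPKM over the 9 libraries, followed by Slc4a1 at 300 and Ank1 at 70.6. Epb42 averaged 19.2, Sptb 13.6, Kel 9.91, Rhd 9.44 and Rhag 1.92. Epb41 thus stood at the 98.8th percentile of the genes tested and Rhag at the 31.2nd. The order Epb41, Slc4a1, Ank1 and Epb42 held in 9 of 9 libraries, with Epb41 between 1.1 and 2.44 times Slc4a1. Epb42 exceeded Sptb in 8 of 9 libraries, Sptb exceeded Kel in 9 of 9 by at least 1.04 times, and Kel exceeded Rhd in only 6 of 9, so that the last 2 did not differ beyond their spread. Rhag was the lowest of the genes in every library.

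Sptb, Ank1 and Epb41 build the skeleton or anchor it. Sptb, the beta chain of red cell spectrin, stood at 23.5, 18.4 and 13.1 rescaled FPKM in Ctrl, at 11.8, 8.09 and 13.2 with CIA and at 7.99, 14.2 and 11.8 with CIA+THz. The first 2 Ctrl libraries were above every other library, and the third lay within the range of both other groups. Ank1, the ankyrin that links spectrin to band 3, read 85.6, 111 and 62.6 in Ctrl, 68.2, 46.0 and 86.5 with CIA and 53.1, 66.0 and 56.6 with CIA+THz. Here the third CIA library exceeded the first Ctrl library, and the groups overlapped. Epb41, protein 4.1, which fastens spectrin to actin, was at 538, 694 and 376 in Ctrl, 512, 416 and 451 with CIA and 291, 400 and 410 with CIA+THz. Its CIA+THz libraries were all below its CIA libraries, while its lowest Ctrl value was below every CIA value and its highest above all others.

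Slc4a1, band 3, exchanges chloride for bicarbonate and holds the skeleton to the membrane. It was measured at 491, 486 and 249 rescaled FPKM in Ctrl, 336, 170 and 236 with CIA and 198, 280 and 256 with CIA+THz. As for Sptb, the first 2 Ctrl libraries were the highest of the 9 and the third fell among the arthritic libraries. Epb42, protein 4.2, which binds band 3 and ankyrin, varied most within Ctrl: 34.4, 25.0 and 12.3, against 21.9, 9.31 and 20.9 in CIA and 12, 19.2 and 17.6 in CIA+THz. The SD of Epb42 was 46.5% of its mean in Ctrl, 40.3% with CIA and 23.2% with CIA+THz.

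The 3 blood group proteins were lower in level. Rhag, the glycoprotein that carries the Rh complex to the membrane, read 3.54, 3.30 and 1.98 rescaled FPKM in Ctrl, 2.13, 0.534 and 1.79 with CIA and 1.21, 0.884 and 1.89 with CIA+THz. All CIA+THz libraries were below all Ctrl libraries, and the lowest value was that of the second CIA library. Rhd, the Rh blood group protein, stood at 11.1, 16.3 and 9.71 in Ctrl, 7.87, 9.12 and 5.41 with CIA and 7.04, 9.59 and 8.84 with CIA+THz. As rescaled, each Ctrl library of Rhd was above each library of both arthritic groups, the narrowest gap being 9.71 against 9.59. As deposited, Rhd was lower in Ctrl 1 (10.2) and Ctrl 3 (10.3) than in CIA+THz 2 (11). Kel, the Kell glycoprotein, a zinc-dependent peptidase, was at 12.7, 16.4 and 12.5 in Ctrl, 11.4, 6.45 and 7.53 with CIA and 7.19, 9.17 and 5.95 with CIA+THz. Kel too was higher in each Ctrl library than in any other, also as deposited, where the same held for Rhag. The share of all genes with every Ctrl library above both other groups was not computed.

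**Figure D1:**
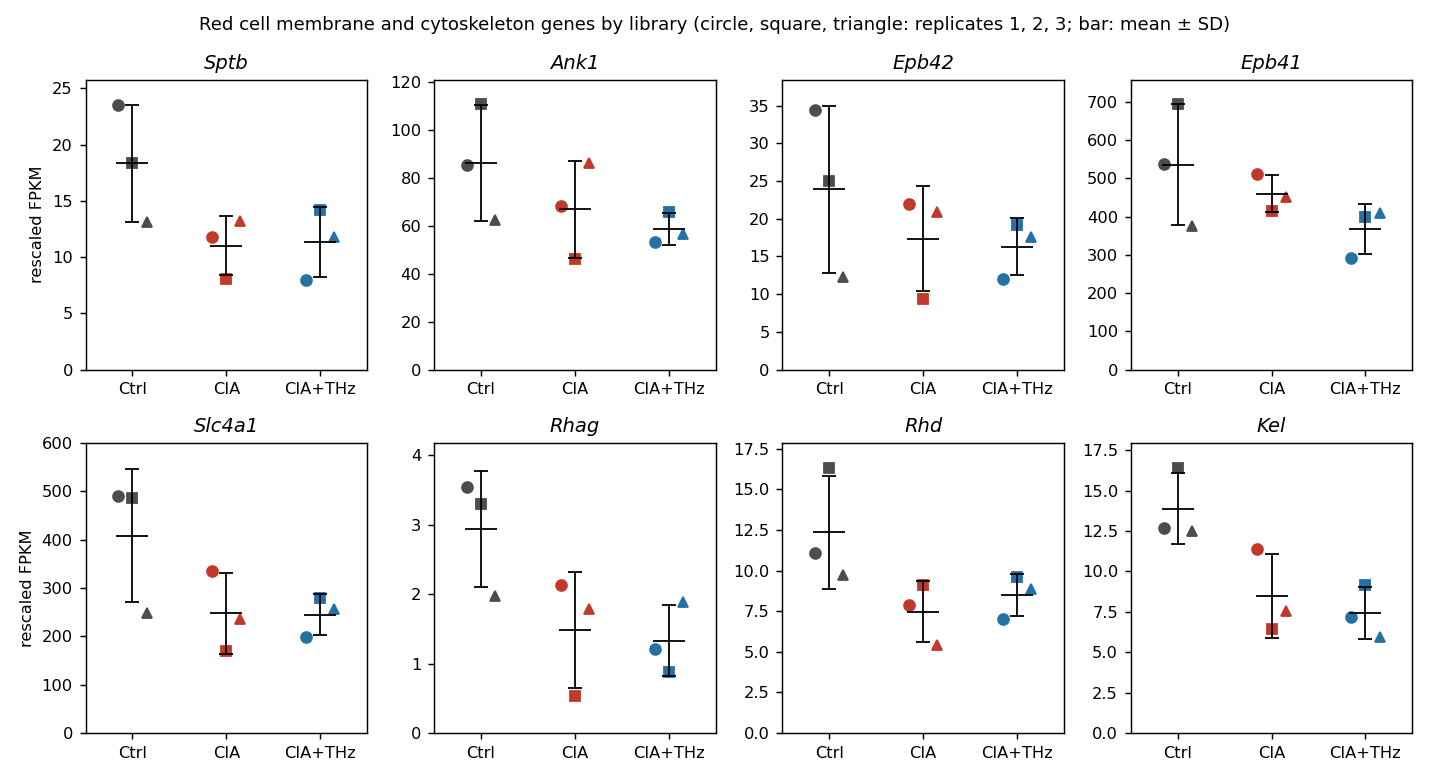
Rescaled FPKM (vertical axis, linear from 0) of each gene in the 9 libraries by group (horizontal axis), with circles, squares and triangles for replicates 1, 2 and 3 and bars for the mean and SD of 3 libraries. The highest of the 9 libraries was Ctrl 1 or Ctrl 2 for each gene, Ctrl 3 was the lowest Ctrl library for all 8, and only in Rhd and Kel was Ctrl 3 also above every library of the arthritic groups. In the FPKM as deposited, which are not drawn, the last was so for Kel and Rhag and not for Rhd. The share of all genes for which it was so was not computed.

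The libraries ordered much the same way for most of the genes. As rescaled, Ctrl 3 had the lowest Ctrl value for 8 of 8 genes, CIA 2 the lowest CIA value for 7, and CIA+THz 1 the lowest value of its group for 6. This order depended in part on scaling. In the FPKM as deposited, Ctrl 1 was the lowest Ctrl library for Rhd (10.2) and Kel (11.7). CIA+THz 3 was then the lowest of its group for Ank1 (62.1). The highest of the 9 values was in Ctrl 1 for Sptb, Epb42, Slc4a1 and Rhag and in Ctrl 2 for the other 4. Over the 28 pairs of genes, Pearson's r of the log2 values across the 9 libraries ran from 0.30 (Epb42 with Rhd) to 0.91 (Sptb with Slc4a1), with a median of 0.73, and all 28 were above 0. These correlations are a description over libraries that share their group, their scaling factor and the rest of their RNA. The 3 lowest were all of Rhd, with Epb42, Rhag and Ank1.

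In CIA against Ctrl, the 8 genes all had a fold change below 0, as 50.7% of all genes did, and 3 of them fell by the study's thresholds, a p under 0.05 before adjustment and a log2 fold change beyond 0.67 in either direction, applied here to limma's p and called the criterion. It was met in this direction by 4.25% of the genes tested. Kel fell from 13.8 ± 2.18 (SD, n = 3) to 8.45 ± 2.59 rescaled FPKM, a log2 fold change of -0.74 (SE 0.24, 95% interval -1.31 to -0.17). Sptb fell from 18.3 ± 5.17 to 11 ± 2.63 (-0.72, SE 0.27, interval -1.35 to -0.090). Rhd fell from 12.4 ± 3.44 to 7.47 ± 1.88 (-0.72, SE 0.27, interval -1.35 to -0.083). Fewer cells of a type and less RNA per cell cannot be told apart in these bulk samples.

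After Benjamini-Hochberg adjustment over all genes, limma's adjusted p of Kel, Sptb and Rhd was 0.201, 0.239 and 0.242, and none of the 8 genes had an adjusted p under 0.05, against 0.154% of all genes. Slc4a1 (-0.71, SE 0.34, limma adjusted p = 0.327) and Rhag (-1.09, SE 0.54, limma adjusted p = 0.344) had fold changes of like or larger size with wider errors, and did not meet the criterion. Epb42 was at -0.44, Ank1 at -0.38 and Epb41 at -0.18, with 95% intervals of -1.50 to 0.63, -1.04 to 0.28 and -0.72 to 0.36. The median of the 8 was -0.71, beside -0.0051 over all genes. Rhd and Kel were without overlap of their libraries and lower in CIA, which was so for 11.8% of all genes.

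These calls rested on few libraries. Without Ctrl 2, none of the 8 genes met the criterion, and Kel was at -0.61, Sptb at -0.70 and Rhd at -0.50. Kel also lost its call without CIA 2 (-0.56) or CIA 3 (-0.67), Sptb without Ctrl 1 (-0.52), CIA 1 (-0.78) or CIA 2 (-0.51), and Rhd without Ctrl 1 (-0.78), CIA 1 (-0.77) or CIA 3 (-0.51). Sptb and Rhd also lost their calls, with the same fold changes, without limma's mean-variance trend or without the filter on low values, which left Kel alone, and Rhd did so with a pseudocount of 1 (-0.65). Conversely, Slc4a1 met the criterion without Ctrl 3 (-1.03) or CIA 1 (-0.96), in both other scalings, with a filter at a mean of 1 and in a single fit of all 9 libraries.

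None of the 8 genes met the criterion in limma between CIA+THz and CIA, while 2.94% of all genes were called higher and 1.6% lower. The p before adjustment was also not under 0.05 for any of the 8, as it was for 13.2% of all genes. Fold changes lay between -0.34 and 0.20, with a median of -0.021 beside 0.025 over all genes. Epb41 came nearest: its mean was 460 ± 48.7 in CIA and 367 ± 66.2 in CIA+THz (log2 fold change -0.34, SE 0.16, limma adjusted p = 0.422). Its 3 CIA+THz libraries were all lower than its CIA libraries, as for 10.2% of all genes, but the groups overlapped in the FPKM as deposited and when scaled without the 20 most abundant genes.

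The intervals left room for change in the others. Rhd was at 0.20 (95% interval -0.34 to 0.75), Kel at -0.16 (-0.78 to 0.45) and Ank1 at -0.15 (-0.69 to 0.39). Sptb at 0.032 (-0.60 to 0.67) and Slc4a1 at 0.023 (-0.59 to 0.63) were close to 0. Epb42 at -0.023 (-0.87 to 0.82) and Rhag at -0.019 (-1.32 to 1.29) had the widest intervals. As rescaled, 5 of the 8 fold changes were below 0 (46.8% of all genes). In the FPKM as deposited and scaled without the 20 most abundant genes only that of Epb41 was, but there the median of all genes moved likewise, to 0.29 and 0.22, and that of the 8 was 0.25 and 0.17.

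CIA+THz against Ctrl used the same Ctrl libraries as CIA against Ctrl, so the comparisons are not independent. All 8 fold changes were below 0 here too, beside 46.3% of all genes, and 4 genes fell by the criterion, which 3.24% of all genes met in this direction. Kel fell from 13.8 ± 2.18 to 7.44 ± 1.63 rescaled FPKM (log2 fold change -0.90, SE 0.20, 95% interval -1.37 to -0.43). Rhag fell from 2.94 ± 0.84 to 1.33 ± 0.511 (-1.11, SE 0.37, interval -1.98 to -0.24). Slc4a1 fell from 409 ± 138 to 245 ± 42.1 (-0.69, SE 0.28), and Sptb from 18.3 ± 5.17 to 11.4 ± 3.15 (-0.69, SE 0.27).

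None of the 8 passed limma's Benjamini-Hochberg adjustment, as 0.105% of all genes did, with adjusted p of 0.119 for Kel, 0.194 for Rhag, 0.25 for Sptb and 0.253 for Slc4a1. Ank1 had a fold change of -0.53 (95% interval -1.01 to -0.048), smaller than the criterion asks for. Epb41 was at -0.52 (-1.08 to 0.047), Rhd at -0.51 (-1.04 to 0.0090) and Epb42 at -0.46 (-1.32 to 0.41). The median of the 8 was -0.61, beside 0.039 over all genes. Rhag, Rhd and Kel were lower without overlap of their libraries, as were 12% of all genes, but in the FPKM as deposited and without the 20 most abundant genes Rhd overlapped.

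Kel kept its call when any single library was left out, with fold changes between -1.06 and -0.75. Without Ctrl 3, the lowest Ctrl library, all 8 genes met the criterion, with a median of -0.89. Leaving out Ctrl 1, Ctrl 2 or CIA+THz 1 left Kel alone. Sptb, Slc4a1 and Rhag were then at -0.49, -0.52 and -0.96 without Ctrl 1, at -0.67, -0.53 and -1.01 without Ctrl 2, and at -0.46, -0.54 and -1.08 without CIA+THz 1. Without CIA+THz 2, Slc4a1 (-0.79) and Rhag (-0.87) lost their calls, and without CIA+THz 3 Sptb (-0.74) and Slc4a1 (-0.73) did. In the FPKM as deposited, the 8 fold changes stayed below 0 but none met the criterion, with Kel at -0.59, Rhag at -0.82 and both Sptb and Slc4a1 at -0.38. The median of all genes was then 0.33 and that of the 8 was -0.30. Scaled without the 20 most abundant genes, Kel and Rhag met it (medians 0.21 and -0.43). Sptb and Slc4a1 also lost their calls without the trend or without the filter, and Sptb did so with a pseudocount of 1 (-0.64).

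**Figure D2:**
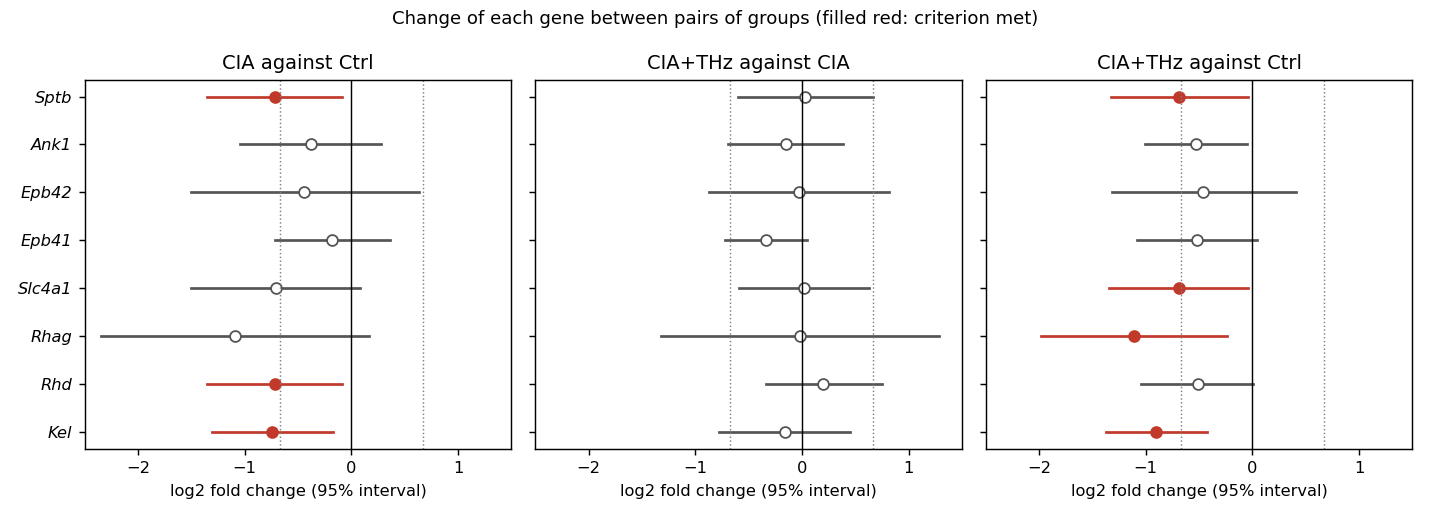
Log2 fold change (horizontal axis) of each gene (vertical axis) in the 3 comparisons, with 95% intervals from limma, dotted lines at the absolute fold change of 0.67 and filled red points where the criterion was met. All points lie left of 0 in the left and right panels, with Kel at -0.74 and -0.90, and the middle panel has no filled point and values from -0.34 to 0.20.

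Across the 3 groups, limma's moderated F-test gave p under 0.05 before adjustment for Kel, Rhd and Sptb, 3 of the 8 genes, and for 21.3% of all genes. Their adjusted p in limma was 0.105, 0.208 and 0.211, and that of the other 5 lay between 0.243 and 0.666, while 2.53% of all genes were under 0.05. Kel stayed under the threshold without any 1 of the libraries. Sptb passed it without Ctrl 3, CIA 3, CIA+THz 1 or CIA+THz 2 but not without any other library, and Rhd without Ctrl 3, CIA 2, CIA+THz 1 or CIA+THz 2 but not without any other. Without Ctrl 3, Slc4a1, Epb41 and Ank1 passed as well, Slc4a1 did so without CIA 1, and Rhag did so without CIA 1 or CIA 2. Without the trend, and in an analysis of variance on linear values, Kel alone passed. Sptb did not pass in the FPKM as deposited, and Slc4a1 did in both other scalings.

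The partners that complete the same lattice were read from a list of 10 genes. In CIA against Ctrl their fold changes were all below 0 (median -0.44) and 1 met the criterion, Tmod1, which caps the ends of the short actin filaments (-1.03, SE 0.40, limma adjusted p = 0.253). In CIA+THz against Ctrl, 2 of the 10 fell, Tmod1 among them (-0.88, SE 0.33), with 9 of 10 below 0 and a median of -0.48. In the FPKM as deposited, none was called in this comparison, 7 of 10 were below 0 and the median was -0.18, beside 0.33 over all genes. None of the 10 met the criterion in CIA+THz against CIA, where the median was 0.026 as rescaled and 0.30 as deposited, beside 0.025 and 0.29 over all genes.

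Proportions between genes were read within each library. Slc4a1 over Sptb was nearly level, at 22.1 ± 3.87 (SD, n = 3) in Ctrl, 22.5 ± 5.39 with CIA and 22 ± 2.58 with CIA+THz. Other proportions were less even. Epb41 over Slc4a1 was 1.1, 1.43 and 1.51 in Ctrl, 1.52, 2.44 and 1.91 in CIA, and 1.47, 1.43 and 1.6 in CIA+THz. Ctrl and CIA did not overlap, but the gap was only 1.51 against 1.52. Rhag over Rhd was 0.241 ± 0.0661 in Ctrl, 0.22 ± 0.143 with CIA and 0.159 ± 0.0616 with CIA+THz, with overlap throughout. Kel over Xk, whose protein is bound to Kell in the membrane, was 4.52 ± 0.767, 3.79 ± 0.865 and 3.63 ± 1.25. These ratios were described and not tested, and the share of ratios between genes without overlap was not computed.

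A list of 25 further proteins of the red cell membrane held glycophorins, blood group carriers and transporters. Their median fold change was -0.058 in CIA against Ctrl and -0.14 in CIA+THz against Ctrl, and in both 15 of the 25 were below 0. Those that fell in CIA against Ctrl were Cd59a, which shields cells from complement (-1.21, SE 0.30, limma adjusted p = 0.129), and Ermap, which carries the Scianna blood group (-1.16, SE 0.39, limma adjusted p = 0.206). In CIA+THz against Ctrl 3 of the 25 fell, among them Cd59a (-1.38) and Tspo2 (-0.92). Cd59a was called in that comparison in all 3 scalings, while Tspo2 was not in the FPKM as deposited, where the median of the 25 was 0.16 beside 0.33 over all genes. Cd55, Sema7a, Slc14a1 and Slc29a1 were called higher there, and the first 3 of these also without the 20 most abundant genes. Tspo2 (-0.82) and Abcb6 (-0.81) fell in CIA+THz against CIA as rescaled, but neither was called in either of the other scalings, in which the median went from -0.063 to 0.17 as deposited and 0.09 without the 20 most abundant genes (0.29 and 0.22 over all genes). Called higher there instead were Cd55, Ermap and Slc14a1 in both, and Kcnn4 as deposited, while none was called higher as rescaled.

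Relatives of the 8 genes that serve other cells were a contrast, since other cells, leukocytes among them, use many of them in place of the red cell forms. Only 6 of 14 such genes passed the filter, and none of these met the criterion in limma as rescaled (Tgm2 was called higher in CIA+THz against Ctrl in the FPKM as deposited). Sptbn1, the beta spectrin of most other cells, read 18.3 to 19.6 rescaled FPKM in Ctrl, 13.6 to 17.1 with CIA and 14.9 to 17.2 with CIA+THz, which is close to the level of Sptb. Sptb over Sptbn1 was 0.974 ± 0.291 in Ctrl, 0.739 ± 0.25 with CIA and 0.70 ± 0.149 with CIA+THz. Sptan1, another spectrin of other cells, was between 14.4 and 18.7 in all libraries. Rhbg and Rhcg, the relatives of Rhag in kidney and other epithelia, and Epb41l3 were listed at 0 in all 9 libraries.

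The 8 genes were next read against other red cell RNA of the same library, for which 12 genes of heme synthesis, iron uptake and red cell maturation served as a reference. The reference list itself differed between the groups in mean level. Its mean log2 level was 7.51 ± 0.24 (SD, n = 3) in Ctrl, 7.05 ± 0.086 with CIA and 6.71 ± 0.24 with CIA+THz. Between CIA+THz and CIA the size of the difference depended on scaling, with a median over the list of -0.30 as rescaled, -0.03 as deposited and -0.10 without the 20 most abundant genes. In CIA against Ctrl, 3 of the 12 fell, Klf1 (-1.45), Hemgn (-1.18) and Trim58 (-0.77), while Alas2 was at 0.11 (SE 0.76). Between CIA+THz and Ctrl, 7 of the 12 fell, among them Hemgn, Trim10, Trim58, Klf1, Epor and Xpo7, but 3 in each of the other scalings, namely Hemgn, Klf1 and Trim58. Between CIA+THz and CIA only Epor was called (-1.10), and in neither of the other scalings.

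Set against that reference, scaling factors cancel, and the differences between CIA and Ctrl had no common sign. The log2 ratio of a gene to the reference differed by -0.70 (Rhag) to 0.28 (Epb41) between CIA and Ctrl, with a median of -0.26, and the libraries of the groups overlapped for 8 of 8 genes. From Ctrl to CIA+THz, the differences lay between -0.37 for Rhag and 0.34 for Epb42 with a median of 0.19, and Epb41 and Rhd, both 0.28, were higher in all CIA+THz libraries. From CIA to CIA+THz, all 8 ratios were higher, by 0.0026 for Epb41 to 0.55 for Rhd, and Rhd alone was without overlap. None of these differences was tested, and the share of all genes without overlap in a ratio to the reference was not computed.

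The genes were also read relative to Ptprc, a leukocyte gene. The log2 ratio to Ptprc was lower in CIA+THz than in Ctrl for all 8 genes, by -0.62 (Epb42) to -1.33 (Rhag), and 7 of them did not overlap, Epb42 being the exception. CIA against Ctrl gave -0.65 to 0.33 with overlap in all 8. In CIA+THz against CIA all 8 were lower relative to Ptprc, by -0.47 to -1.01 with 2 free of overlap, which is opposite in sign to the ratios against the reference list. Ptprc itself varied among the CIA libraries, at 70.8, 66.8 and 141 rescaled FPKM, against 92.7 to 150 in Ctrl and 136 to 143 in CIA+THz. The other 3 genes of the leukocyte list ran otherwise: in CIA+THz against CIA Ptprc was at 0.67, while Coro1a was at -0.27, Cd53 at -0.12 and Laptm5 at -0.18, and in CIA against Ctrl Ptprc was at -0.52, Coro1a at 0.41, Cd53 at -0.19 and Laptm5 at 0.25. The ratios above are to Ptprc alone and were not computed for the rest of that list. Nor was the share of all genes without overlap computed for these ratios. The mean of the reference list was itself lower relative to Ptprc in CIA+THz, by -0.96 against Ctrl and -1.01 against CIA, both without overlap.

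**Figure D3:**
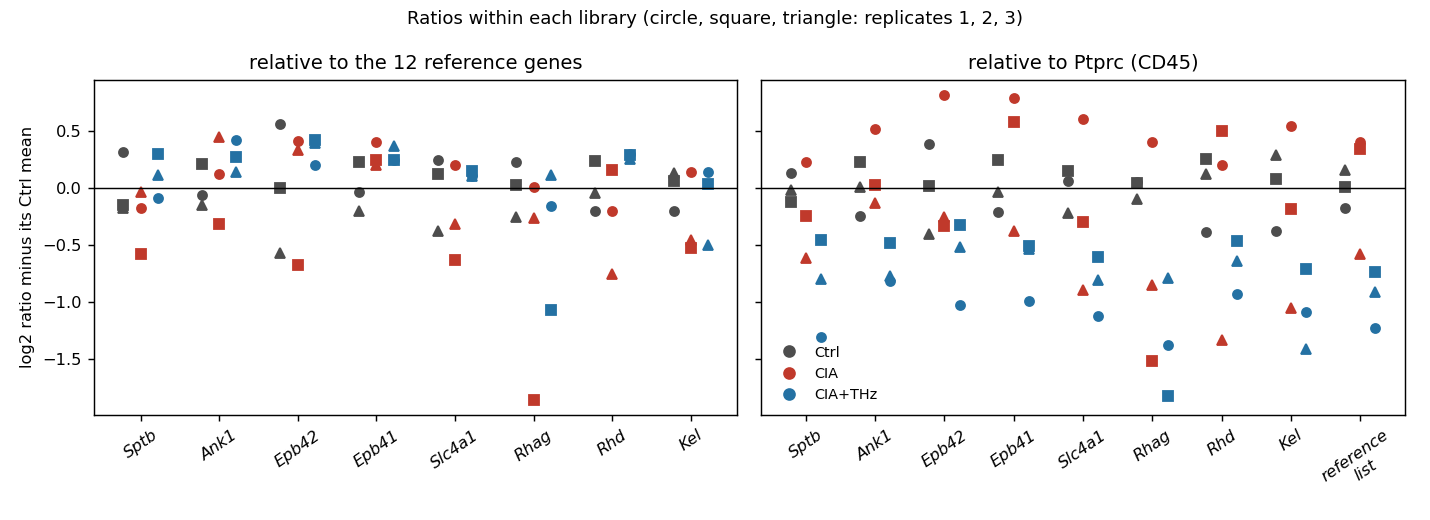
Log2 ratio of each gene to the mean of the 12 red cell reference genes (left) or to Ptprc (right) in the same library, drawn as the difference from the Ctrl mean (vertical axis), with circles, squares and triangles for replicates 1, 2 and 3. In the left panel the groups overlap for most genes and Rhag of CIA 2 lies far below the rest, and in the right panel the CIA+THz libraries lie below the Ctrl libraries for 7 of the 8 genes and for the reference list.

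Markers of other blood cells were read in the same comparisons. In CIA against Ctrl, 4 of 6 monocyte genes rose (Csf1r, Ccr2, Lyz2 and Fn1) in all 3 scalings, and the summed level of the 6 was 2870 to 3220 rescaled FPKM in Ctrl, 5030 to 5570 with CIA and 3270 to 3540 with CIA+THz. Most of that sum was Lyz2, with 4710 of a mean of 5340 in CIA. Of the other lists, 2 of 4 natural killer cell genes (Ncr1 and Klrd1) and 1 of 7 neutrophil genes (Mmp8) fell in that comparison, and none of 4 leukocyte, 5 T cell, 5 B cell and 6 platelet genes met the criterion. In CIA+THz against Ctrl, 3 of 7 neutrophil genes fell (S100a8, Mmp8 and Retnlg, the first not in the other scalings), with summed levels as rescaled of 12400 to 20900 in Ctrl, 14200 to 18400 with CIA and 10500 to 12000 with CIA+THz. Most of that sum was S100a9 (8550 of a mean of 11100 with CIA+THz), which was not called against Ctrl (-0.58) and whose libraries overlapped. As deposited, S100a9 was at 11500 in CIA+THz 1 and 9690 in Ctrl 3. Ccr2 and Fn1 of the monocyte genes were called higher in CIA+THz against Ctrl and Cd14 lower (not in the FPKM as deposited), and Csf1r was called higher in both other scalings. Of 5 B cell genes, 4 were called higher in the FPKM as deposited, 3 without the 20 most abundant genes and none as rescaled. In CIA+THz against CIA, the called genes as rescaled were Ptprc and Cd5 (higher) and Retnlg, Cd14 and Fn1 (lower), the last 3 in neither of the other scalings. Gained there were Klrd1 and Ncr1 of the natural killer cell genes in both, and Cd22 of the B cell genes as deposited, all called higher. No marker of these lists was at 0 in all libraries of a group. The part of these cells in the levels of the 8 genes was not tested.

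Outside the red cell lists, the 10 genes whose log2 values most resembled the mean of the standardized members across the 9 libraries were Eif5 (r = 0.99), Cd24a (0.989), Dhrs11 (0.985), Dnajb6 (0.985), Tmcc2 (0.984), Ube2c (0.984), Fam210b (0.983), Rnf11 (0.983), Prxl2a (0.98) and Mpc2 (0.977), of 9696 genes with a mean of at least 1. Cd24a, a surface glycoprotein of red cells, their precursors and some leukocytes, was at 2200 ± 696 rescaled FPKM in Ctrl, 1280 ± 270 with CIA and 1120 ± 209 with CIA+THz (SD, n = 3). Dhrs11 was at 107 ± 32.0, 57.5 ± 19.9 and 55.9 ± 10.4. By gene, the closest were Prxl2a for Sptb, Slc3a2 for Ank1, Narf for Epb42, Cttn for Epb41, Arfip1 for Slc4a1, Txnrd2 for Rhag, Wrnip1 for Rhd and Ramac for Kel, with r from 0.922 (Kel) to 0.985 (Slc4a1). These are rankings over 9 libraries that share group and scaling, and they carry no test. Among the partners and other membrane proteins, Mpp1 (0.962) and Cd59a (0.952) were among the most alike, and Abcb6 (-0.48) and Cd55 (-0.626) ran the other way.

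**Figure D4:**
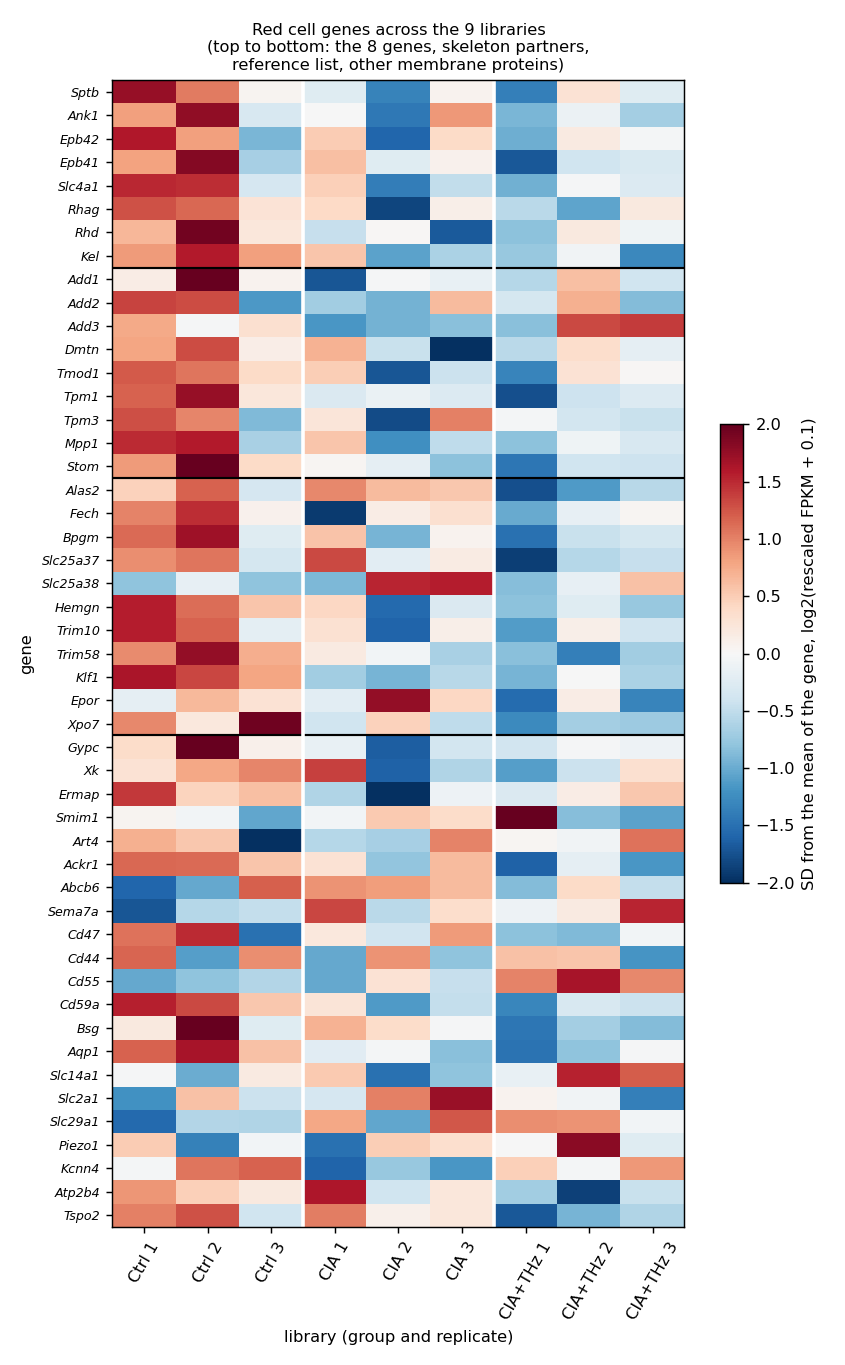
Each row is a gene and each column a library, coloured by the number of SD from the mean of that gene over the 9 libraries of log2(rescaled FPKM + 0.1), for the 8 genes, 9 skeleton partners, 11 genes of the reference list and 21 of the other membrane proteins. The members are mostly red in Ctrl 1 and Ctrl 2 and blue in CIA 2 and CIA+THz 1, a pattern that Mpp1 and Cd59a share and that Abcb6 and Cd55 do not.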

How the data were processed

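The authors deposited FPKM for 20926 genes in 9 libraries, and the submitters' processing notes name HISAT2, StringTie, DESeq2 and mm10. The annotation, strand setting and any filter are not given in the sources used here. Groups came from the labels. Values were rescaled by median of ratios, and log2(rescaled FPKM + 0.1) of the 12366 genes with a mean of at least 0.1 was fitted with limma 3.58.1 (lmFit and eBayes with trend, R 4.3.3), each pair of groups on its 6 libraries. The study's thresholds, p under 0.05 and a log2 fold change beyond 0.67, were applied to limma's p without adjustment. Fold changes on this scale understate those of low genes. The members and lists were chosen with earlier results of these data known. Named beside the 8 genes were the list genes called in a comparison, up to 4 of the highest level in a list and the 10 most alike. A few list genes are not reported here by name. Cd55, Xk, the list genes at 0 and those called only in another scaling were named after their values were seen. Gene coordinates are GENCODE vM21, matched by symbol. The scripts were tested on simulated data with the same spread for all genes and fold changes larger than those of most of the 8 genes. How well smaller changes are found was not tested. Alternatives were other scalings, a pseudocount of 1, other filters, no trend, all libraries in 1 fit, a replicate block, each library left out, adjusted p and an analysis of variance on linear values.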

Additional observations from a re-analysis of the deposited data

How the results depend on the processing

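All 8 genes stayed below 0 in CIA+THz against Ctrl under every alternative tried, and in CIA against Ctrl under all but 1, Epb41 without Ctrl 2 (range over left-out libraries -0.42 to 0.027). In CIA+THz against CIA, where no gene was called, the sign changed for Ank1, Epb42, Rhag and Kel in the FPKM as deposited (0.13, 0.25, 0.24 and 0.11) and when scaled without the 20 most abundant genes (0.051, 0.18, 0.17 and 0.037), while the median of all genes moved from 0.025 to 0.29 and 0.22. With each library left out in turn, that comparison ranged from -0.17 to 0.26 for Sptb, -0.40 to 0.058 for Ank1, -0.42 to 0.19 for Epb42, -0.22 to 0.27 for Slc4a1, -0.58 to 0.32 for Rhag, -0.0090 to 0.36 for Rhd and -0.33 to 0.071 for Kel.

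Over all genes, 1118 met the criterion in CIA against Ctrl and 19 also by adjusted p. CIA+THz against CIA gave 561 (363 higher, 198 lower), 1199 (1133 and 66) as deposited, 932 (843 and 89) without the 20 most abundant genes, 283 with a pseudocount of 1 and 0 by adjusted p. CIA+THz against Ctrl gave 975 (574 and 401), 1720 (1600 and 120) as deposited, 1215 (1026 and 189) without the 20 most abundant genes, 724 to 1487 with a library left out and 13 by adjusted p. The F-test gave 2629, and 313 by adjusted p. The cause of these shifts was not tested.

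The libraries share replicate numbers but no label pairs them. Deviations from the group means of same-numbered libraries correlated between -0.052 and 0.031, and not every library correlated best with its own number. With the replicate number as a block, 1073, 506 and 967 genes met the criterion in the 3 comparisons and 2399 genes the F-test. Of the 8 genes, only Sptb in CIA+THz against Ctrl and in the F-test lost a call under the block. Of the values of single genes, 57 lost a call under an alternative and 19 gained 1. Depth limits the precision of low genes such as Rhag, and FPKM does not give it.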
